A study of Mus musculus with 40 samples.

Results

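The hepatic transporters of bile acids and organic anions were examined across a dose-response study of the dioxin TCDD, a persistent environmental contaminant and ligand of the aryl hydrocarbon receptor (AhR). The set comprised 10 genes chosen by symbol, out of 55359 identifiers counted in each library, and all 10 passed the filter on low counts. They were 5 genes of sinusoidal uptake (Slc10a1, Slco1a1, Slco1a4, Slco1b2 and Slco2b1), 3 of canalicular export (Abcb11, Abcb4 and Abcc2) and 2 of basolateral export (Abcc3 and Abcc4). Male C57BL/6 mice, 30 days old at the start and 58 days old at the end, were gavaged with sesame oil or TCDD once every 4 days over 28 days, for 7 administrations in all. There were 8 groups of 5 mice, namely the sesame oil vehicle and 7 doses of TCDD, of which 0.03, 0.1 and 0.3 μg/kg were the low doses, 1 and 3 μg/kg the middle doses and 10 and 30 μg/kg the high doses. Whole liver was sequenced, 1 library per mouse.

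Bile acids circulate between the liver and the intestine. Hepatocytes take up conjugated bile acids from sinusoidal blood mainly through NTCP, encoded by Slc10a1, while the organic anion transporting polypeptides of the Slco family take up unconjugated bile acids, steroid conjugates, bilirubin, thyroid hormones and drugs. At the canalicular membrane BSEP (Abcb11) pumps bile salts into bile, MDR2 (Abcb4) flips the phosphatidylcholine that shields the biliary epithelium, and MRP2 (Abcc2) exports glucuronide and glutathione conjugates. MRP3 (Abcc3) and MRP4 (Abcc4) sit on the basolateral membrane, return conjugates and bile acids to the blood, and are known as a route of relief in cholestasis.

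The libraries held 15.5 M to 21.0 M counts in genes (median 17.5 M), and values are given as counts per M (mega) counts (CPM) after TMM scaling of the library sizes. A transporter was called at a fold of at least 1.5 with a p, adjusted by Benjamini-Hochberg in the quasi-likelihood framework of edgeR, under 0.05. The AhR targets Cyp1a1 and Cyp1a2 followed the labels, with 1.66 ± 0.480 CPM of Cyp1a1 in vehicle and 5767 ± 666 CPM at 30 μg/kg (SD, n = 5 each), and 1029.7 ± 139.9 against 23112 ± 2865 CPM of Cyp1a2. One library stood apart: replicate 1 of the 30 μg/kg group scored 81.7 on the first principal component of all tested genes, where the other 4 mice of that dose scored 129 to 147. This mouse lay outside the range of the other 4 for 8 of the 10 transporters, on the side of vehicle for 7 (Slc10a1, Slco1b2, Slco2b1, Abcb11, Abcb4, Abcc3 and Abcc4) and below the others for Slco1a4. For Abcc3 this mouse lay past vehicle, at 232 CPM against 277 to 469 CPM in vehicle. The transporters' fold changes from vehicle at 30 μg/kg are therefore given with and without it. All comparisons with vehicle share the same 5 vehicle mice. The titles number the livers in 2 runs, up to 27 (19 libraries) and from 28 (21 libraries), and what the runs stand for is not given in the labels.

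The reference holds upstream sequence for 9 of the 10 genes. Windows of 250 bases before the annotated start are printed for the strongest riser (Abcc4), for the bile salt pump that fell (Abcb11) and for the uptake gene that fell furthest (Slco1a1), since the core of the dioxin response element, to which the AhR complex is known to bind, is the letters GCGTG. Both strands were searched, and capitals mark the core, which reads CACGC where it lies on the opposite strand. The windows come from RefSeq (GRCm38.p6). They are chr14:118706220-118706469, minus strand for Abcc4, chr2:69342617-69342866, minus strand for Abcb11 and chr6:141946963-141947212, minus strand for Slco1a1, each written 5′ to 3′ on the gene's strand.
Abcc4: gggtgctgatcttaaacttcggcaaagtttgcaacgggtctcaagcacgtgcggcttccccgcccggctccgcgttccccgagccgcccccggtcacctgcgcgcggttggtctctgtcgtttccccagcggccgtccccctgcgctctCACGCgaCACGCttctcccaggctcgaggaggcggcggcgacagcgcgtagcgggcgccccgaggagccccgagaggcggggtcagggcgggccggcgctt
Abcb11: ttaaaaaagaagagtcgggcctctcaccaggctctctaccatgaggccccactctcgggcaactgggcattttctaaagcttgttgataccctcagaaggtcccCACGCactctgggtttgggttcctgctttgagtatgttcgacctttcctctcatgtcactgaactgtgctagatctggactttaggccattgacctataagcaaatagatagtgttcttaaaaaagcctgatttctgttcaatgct
Slco1a1: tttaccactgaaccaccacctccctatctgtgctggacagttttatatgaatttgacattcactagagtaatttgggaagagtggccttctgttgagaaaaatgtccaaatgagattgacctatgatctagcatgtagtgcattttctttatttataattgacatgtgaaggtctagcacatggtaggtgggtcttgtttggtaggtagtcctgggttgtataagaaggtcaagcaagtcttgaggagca
The Abcc4 window held 2 cores, at 101 and 94 bases before the start, and a second, downstream Abcc4 start in the table had none. The Abcb11 window held 1 core at 146 bases before the start and the Abcb4 window 1 core at 6 bases. No core was found in the windows of the uptake genes or of Abcc2. Over all 32851 windows of the same length, 28.2% held at least 1 core, and 3 of the 13 windows of these genes did. A match describes the letters only.

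In vehicle livers Slc10a1 had the highest level per length, at 264 ± 32.3 counts per kilobase of exon per M counts (RPKM; SD, n = 5). Abcb11 (169 ± 15.4 RPKM) and Slco1b2 (137 ± 17.2 RPKM) came next and overlapped each other. Abcc2, Slco1a1 and Abcc3 formed a middle group at 75.8 ± 1.98, 66.6 ± 12.9 and 65.1 ± 11.9 RPKM, whose ranges overlapped between neighbours. Abcb4 (30.2 ± 3.30 RPKM) and Slco2b1 (24.9 ± 2.47 RPKM) overlapped below them, and Slco1a4 stood lower at 7.62 ± 1.62 RPKM. Abcc4 was the lowest of the 10, at 0.392 ± 0.121 RPKM, a level that rested on 25 to 61 counts per library.

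Uptake genes and the bile salt pump fell and 1 basolateral exporter rose steeply with dose. At 30 μg/kg 4 of 5 uptake genes and Abcb11 fell, Abcb4 rose at the edge of the fold threshold, and Abcc4 rose 91.2-fold. The count of transporters called was 7 of 10 at this dose (2 higher, 5 lower), where 42.1% of the 15373 genes tested were called (23.2% higher, 18.9% lower), and 8 of 10 without replicate 1, Abcc3 being the added gene. At 10 μg/kg 6 of 10 were called (1 higher, 5 lower) against 21.8% of all genes (13.6% higher, 8.13% lower). At 30 μg/kg 5 transporters lay wholly below the vehicle mice and 1 wholly above, as did 17.9% and 19.7% of all genes, and at 10 μg/kg the counts were also 5 and 1, with 10.1% and 12.9% of all genes. Below that dose calls were few: 2 at 3 μg/kg (1 higher, 1 lower; all genes 6.75%, 4.53% higher and 2.22% lower), 1 higher at 1 μg/kg (2.78%, 2.15% and 0.637%) and 1 higher at 0.3 μg/kg (0.468%, 0.403% and 0.065%). No transporter was called by edgeR at 0.1 μg/kg (all genes 0.0976%, 0.0846% higher and 0.013% lower), where 3 had an unadjusted p under 0.05, DESeq2 called 1 and limma called 0. At 0.03 μg/kg (all genes 0.0195%) edgeR, DESeq2 and limma each called 0 and 0 had an unadjusted p under 0.05. The median log2 fold change at 10 and 30 μg/kg was −0.92 and −2.32 for the 5 uptake genes, −0.09 and 0.06 for the 3 canalicular genes and 1.43 and 3.53 for the 2 basolateral genes, beside 0.01 and 0.03 over all tested genes. Over the ordered doses 9 of 10 had a slope with an adjusted p under 0.05 (3 upward, 6 downward), where 57.7% of all genes did (31.5% upward, 26.1% downward). The slopes of Slco1a4 (adjusted p = 0.0337) and Abcc3 (adjusted p = 0.0347) were lost in 5 and 10 of the 40 fits that left out 1 mouse, with adjusted p up to 0.0636 and 0.0806. For Slco1a4 these mice were vehicle replicates 4 and 5, 0.03 μg/kg replicate 3 and 30 μg/kg replicates 1 and 5, and for Abcc3 vehicle replicates 1 to 5, 0.03 μg/kg replicate 1, 0.1 μg/kg replicate 3 and 30 μg/kg replicates 2, 3 and 4. Of the 13 alternatives 5 lost the slope of Slco1a4 (edgeR's adjusted p up to 0.622, library totals alone). For Abcc3 4 lost it (up to 0.992, linear dose). Library totals alone gave Abcc2 a slope of 0.06 (adjusted p = 0.00340). At 30 μg/kg the falls of 4 of 5 uptake genes and Abcb11 came with falls of 7 of 8 hepatocyte markers (all genes 18.9% lower). The summed hepatocyte markers were already below all vehicle mice at 0.3, 1 and 3 μg/kg, and at 10 μg/kg the sum overlapped vehicle. Gene by gene, 2, 3 and 4 of the 8 markers were called lower at 1, 3 and 10 μg/kg (all genes 0.637%, 2.22% and 8.13% lower). Their median log2 fold change was −0.42, −0.50 and −0.63 at these doses and −1.90 at 30 μg/kg. In whole liver fewer cells of a type and less RNA per cell cannot be told apart.

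**Figure D1:**
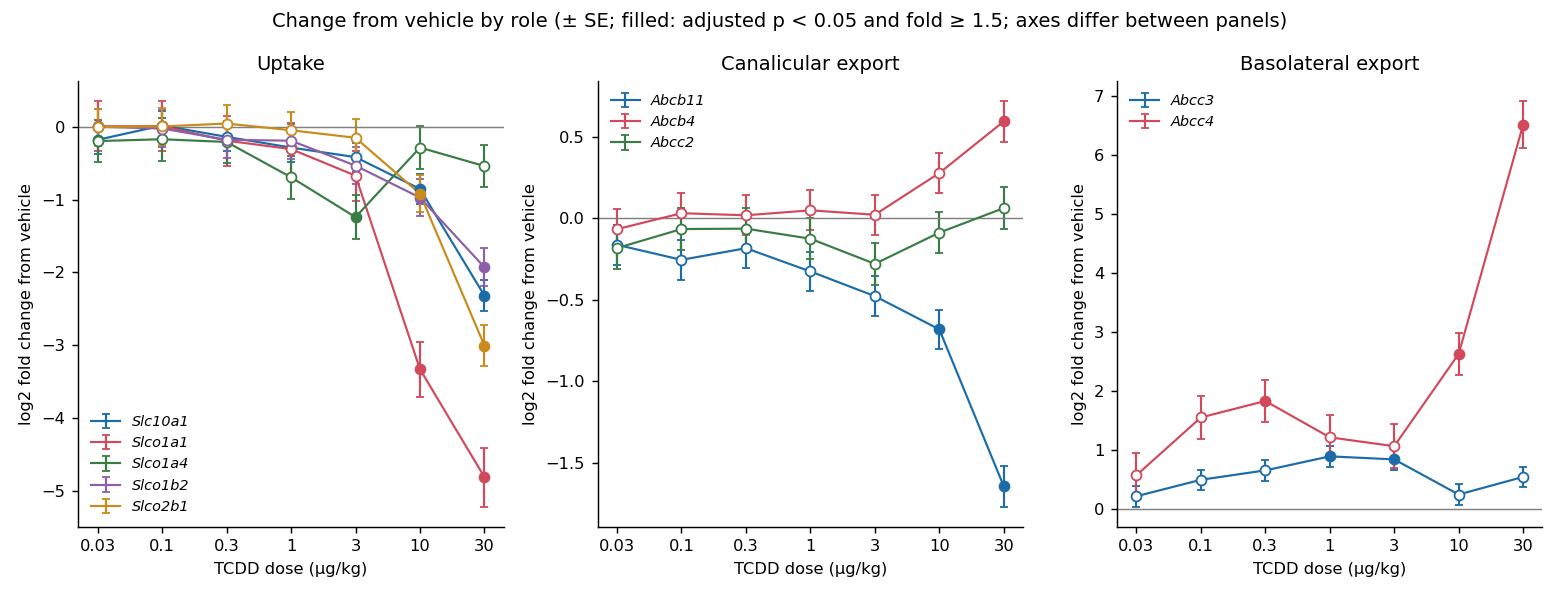
Log2 fold change from vehicle (vertical axis) against TCDD dose in μg/kg (horizontal axis) for the uptake, canalicular export and basolateral export genes; bars are ± SE of the fit to all 40 libraries, and filled points passed an adjusted p of 0.05 with a fold of at least 1.5. Slc10a1, Slco1a1, Slco1b2, Slco2b1 and Abcb11 turn down at 10 and 30 μg/kg while Abcc4 reaches 6.51 at 30 μg/kg, and the vertical axes differ between panels.

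Slc10a1, the main sodium-dependent importer of conjugated bile acids, was repressed at the 2 highest doses. Vehicle mice had 607, 573, 464, 611 and 650.1 CPM. At 10 μg/kg the mice had 376, 351, 262, 313 and 309 CPM and at 30 μg/kg 239, 58.3, 61.4, 95.0 and 129 CPM. All mice of both doses lay below every vehicle mouse, and replicate 1 was the highest of the 30 μg/kg group. The log2 fold change was −0.85 ± 0.20 (SE) at 10 μg/kg, a 1.80-fold repression (adjusted p = 0.00110, edgeR's quasi-likelihood test), and −2.32 ± 0.21 at 30 μg/kg, a 4.99-fold repression (adjusted p = 7.26e-12). Without replicate 1 this last log2 value was −2.78. The 3 μg/kg mice (399 to 455 CPM) also lay below all vehicle mice, at a log2 fold change of −0.41 ± 0.20 that was not called (adjusted p = 0.212).

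Slco1a1, which encodes OATP1A1, a male-predominant importer of organic anions, showed the largest fall of the 10 genes. Its level was 417, 325, 377, 393 and 246 CPM in vehicle, 198, 266, 345, 149 and 147 CPM at 3 μg/kg and 33.2, 43.6, 11.9, 20.3 and 65.7 CPM at 10 μg/kg. At 30 μg/kg it was 11.5, 25.2, 13.4, 9.92 and 2.40 CPM. The 3 μg/kg mice overlapped vehicle, whereas the 10 and 30 μg/kg mice lay far below every vehicle mouse. The repression was 10.1-fold at 10 μg/kg (log2 fold change −3.33 ± 0.38, adjusted p = 8.07e-09, edgeR's quasi-likelihood test) and 28.1-fold at 30 μg/kg (−4.81 ± 0.41, adjusted p = 1.03e-12). Replicate 1 lay within the other 4 mice for this gene, and the value without it was −4.81. From 3 to 10 μg/kg alone the log2 difference was −2.66 ± 0.37 (adjusted p = 3.90e-06), and 69.2% of the log2 change seen at 30 μg/kg was present at 10 μg/kg, against 50.3% for Slco1b2, 41.5% for Abcb11, 36.7% for Slc10a1 and 30.5% for Slco2b1.

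Slco1a4, the neighbouring gene of the same subfamily that encodes OATP1A4, did not follow Slco1a1. Vehicle mice had 48.1, 39.5, 38.4, 55.5 and 62.7 CPM and 3 μg/kg mice had 29.3, 15.9, 23.0, 21.0 and 14.2 CPM. At 10 μg/kg the values were 36.5, 39.4, 36.4, 53.2 and 35.4 CPM and at 30 μg/kg 16.3, 50.8, 46.1, 37.1 and 17.7 CPM. Every 3 μg/kg mouse lay below vehicle, while the 10 and 30 μg/kg groups overlapped vehicle. The gene was called at 3 μg/kg alone, at 2.36-fold lower (log2 fold change −1.24 ± 0.30, adjusted p = 0.00483, edgeR's quasi-likelihood test). The values at 10 μg/kg (−0.28 ± 0.29, adjusted p = 0.506) and 30 μg/kg (−0.54 ± 0.29, adjusted p = 0.120) were not called. Without replicate 1 the 30 μg/kg value was −0.39 (adjusted p = 0.268). The difference from 3 to 10 μg/kg was 0.96 ± 0.30 upward (adjusted p = 0.0349), but 7 of the 10 fits that left out 1 mouse of these groups lost this call, with adjusted p from 0.0263 to 0.101. Those mice were replicates 2, 3, 4 and 5 at 3 μg/kg and replicates 2, 3 and 4 at 10 μg/kg. The call at 3 μg/kg held in run 2 of the titles (−1.75) and not in run 1 (−0.90, adjusted p = 0.319). At 30 μg/kg a call appeared without replicate 2, at −0.76 (adjusted p = 0.0372). The ratio of Slco1a4 to Slco1a1 per length was 0.121 ± 0.0511 in vehicle (SD, n = 5), 0.0841 ± 0.0335 at 3 μg/kg, 1.35 ± 0.922 at 10 μg/kg and 2.96 ± 1.91 at 30 μg/kg (3.41 ± 1.88 without replicate 1, n = 4). Reads that map to several places are not counted, so reads shared by these paralogs are missing from both levels.

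Slco1b2, which encodes OATP1B2, the importer of bilirubin and unconjugated bile acids, fell in steps. Its level was 754, 666, 660.4, 744 and 543 CPM in vehicle, 405, 439.6, 385, 302 and 188 CPM at 10 μg/kg and 318, 128, 181, 163 and 95.2 CPM at 30 μg/kg. Neither dose overlapped vehicle. The repression was 1.96-fold at 10 μg/kg (log2 fold change −0.97 ± 0.25, adjusted p = 0.00271, edgeR's quasi-likelihood test) and 3.81-fold at 30 μg/kg (−1.93 ± 0.26, adjusted p = 5.10e-08; −2.27 without replicate 1). The spread within groups followed the titles: in 6 of the 6 groups with the third number of a triple from the second run, that mouse was the lowest for Slco1b2, as it was in 5 of 6 groups for Slco1a1 and for Abcc2. With run and order within the triples as covariates the values of Slco1b2 were −0.86 at 10 μg/kg and −1.83 at 30 μg/kg, both called.

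Slco2b1, which encodes OATP2B1, an importer of steroid sulfates, held its level through 3 μg/kg and then fell. It was 151, 148, 129, 143 and 169.6 CPM in vehicle, 128, 130.1, 122, 135 and 153 CPM at 3 μg/kg and 92.6, 91.4, 44.5, 77.8 and 85.9 CPM at 10 μg/kg. At 30 μg/kg it was 45.3, 6.57, 9.00, 13.0 and 18.6 CPM. The 3 μg/kg mice overlapped vehicle, the 10 and 30 μg/kg mice did not, and replicate 1 at 30 μg/kg stood well above its 4 group mates. The repression was 1.89-fold at 10 μg/kg (−0.92 ± 0.26, adjusted p = 0.00534, edgeR's quasi-likelihood test) and 8.03-fold at 30 μg/kg (−3.01 ± 0.28, adjusted p = 9.92e-12). Without replicate 1 it was 12.7-fold (−3.67), over 1.5 times larger. Its exons share 549 bases with genes on the opposite strand, and since the libraries keep no strand its counts may hold reads of these.

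**Figure D2:**
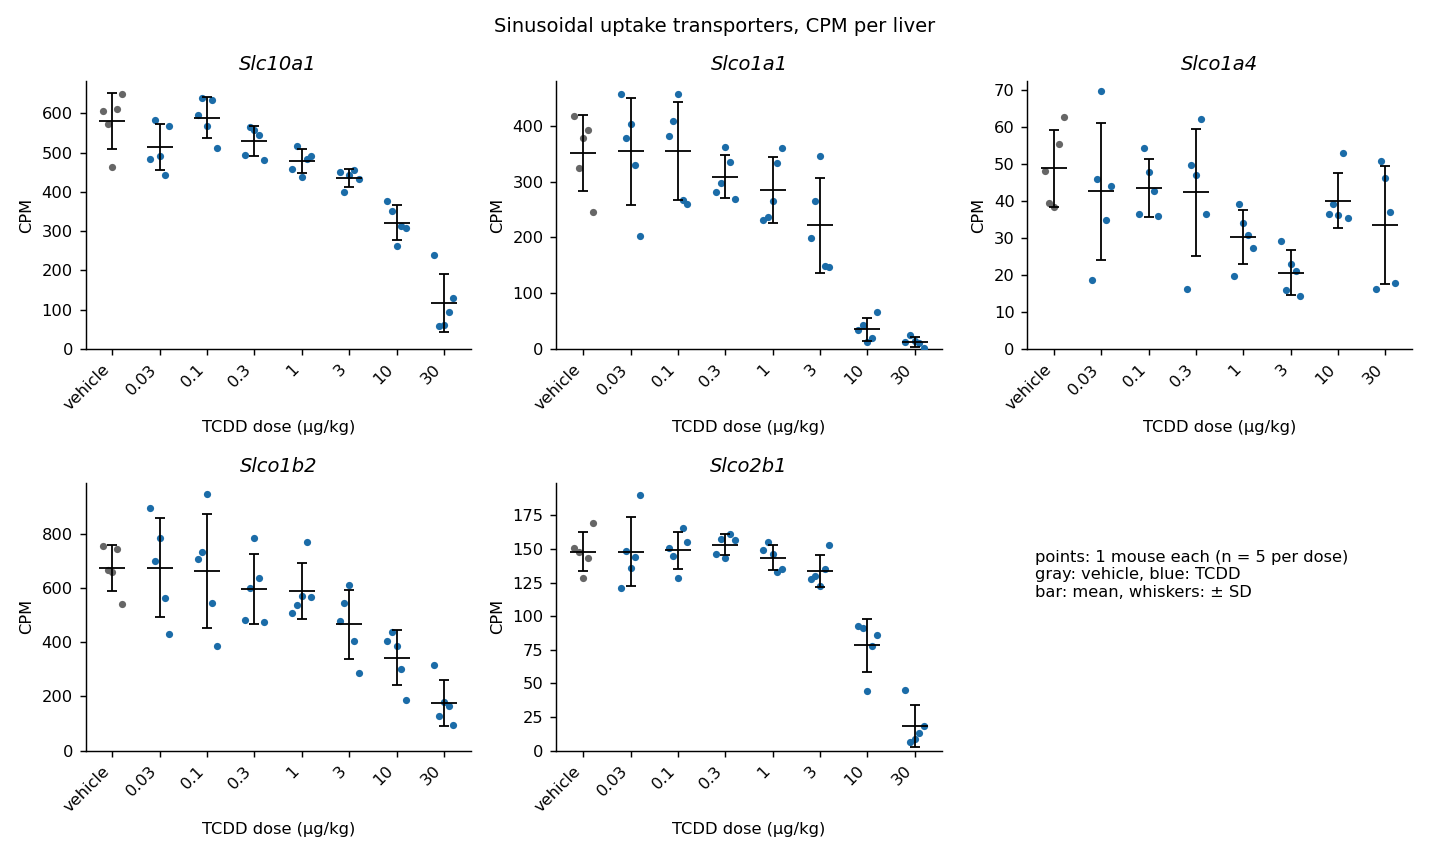
CPM of the 5 uptake genes (vertical axes, from 0) by TCDD dose in μg/kg (horizontal axes); each point is 1 mouse, gray for vehicle and blue for TCDD, and bars are the mean ± SD of 5 mice. Slc10a1, Slco1a1, Slco1b2 and Slco2b1 lie below all vehicle mice at 10 and 30 μg/kg, whereas Slco1a4 is lowest at 3 μg/kg.

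Within the uptake class some 10 μg/kg calls were lost when run 1 of the titles was fitted alone, and a difference between the runs was not tested. Run 1 held 3 vehicle and 2 of the 10 μg/kg mice, and run 2 held 2 and 3. In run 1 alone the log2 fold changes at 10 μg/kg (± SE) were −0.61 ± 0.35 for Slc10a1, −0.73 ± 0.26 for Slco1b2 and −0.65 ± 0.43 for Slco2b1. None of these 3 was called there (adjusted p = 0.278, 0.0695 and 0.352, edgeR). In run 2 alone the values were −1.10 ± 0.21, −1.14 ± 0.36 and −1.17 ± 0.25, each called. With title run as a covariate all 3 genes stayed called. Slco1a1 was called at 10 μg/kg in both runs (−3.30 and −3.29). At the top dose these 4 genes were called in each run.

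Abcb11, the bile salt export pump, declined in small steps from 1 to 10 μg/kg and in a larger one to 30 μg/kg (−0.96 ± 0.12). Its mean was already lower at 0.03, 0.1 and 0.3 μg/kg, at 776, 728 and 765 CPM against 869 CPM in vehicle. The mice of each of these low doses overlapped vehicle, and none of these differences was called. Vehicle mice had 880.4, 779.7, 810.5, 983 and 889 CPM, 1 μg/kg mice 617, 765, 657, 706 and 718 CPM and 3 μg/kg mice 651, 649, 617, 661 and 540.4 CPM. At 10 μg/kg they had 542, 542, 521, 585 and 517 CPM and at 30 μg/kg 379, 239.7, 228, 351 and 191 CPM. From 1 to 30 μg/kg none of the 4 doses overlapped vehicle. At 3 μg/kg the adjusted p was 0.00711 (edgeR's quasi-likelihood test) but the 1.39-fold difference was under the fold threshold. The gene was called at 10 μg/kg (1.60-fold lower, log2 fold change −0.68 ± 0.12, adjusted p = 3.01e-05) and at 30 μg/kg (3.13-fold lower, −1.64 ± 0.12, adjusted p = 7.03e-14; −1.80 without replicate 1). With libraries scaled to their totals alone the 10 μg/kg value was −0.47 and was no longer called. Its exons share 155 bases with genes on the opposite strand.

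Abcb4, the phospholipid flippase, moved the other way from Abcb11. It was 232, 301, 288, 286 and 312 CPM in vehicle, 299.6, 331, 360.4, 394 and 333 CPM at 10 μg/kg and 247, 485, 533, 490.1 and 384 CPM at 30 μg/kg. At the top dose 4 of 5 mice lay above every vehicle mouse and replicate 1 lay within the vehicle range. The induction was 1.51-fold (0.59 ± 0.12, adjusted p = 8.98e-05, edgeR's quasi-likelihood test), at the edge of the fold threshold. Without replicate 1 it was 1.64-fold, and without vehicle replicate 1 (0.53) or without replicate 2, 3 or 4 at 30 μg/kg (0.52, 0.48 and 0.52) the log2 fold change dropped under the threshold, at adjusted p from 7.63e-08 to 0.00147 over all mice left out. Of the 13 alternatives 5 lost the call, namely run 1 alone (0.41, adjusted p = 0.132, the highest of the 13), title run (0.56) or title run and order (0.58) as covariates, only the groups compared (0.58) and limma (0.55). The ratio of Abcb4 to Abcb11 per length was 0.181 ± 0.0278 in vehicle, 0.348 ± 0.0303 at 10 μg/kg and 0.923 ± 0.367 at 30 μg/kg (SD, n = 5 each), with vehicle at 0.144 to 0.212 and 30 μg/kg at 0.357 to 1.28. Without replicate 1 the 30 μg/kg ratio was 1.06 ± 0.216 (n = 4).

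Abcc2, the canalicular exporter of conjugates, was called at 0 of 7 doses by edgeR, DESeq2 and limma, and 1 dose had an unadjusted p under 0.05. Its vehicle values lay close together at 665, 628, 641, 637 and 665 CPM, and the 30 μg/kg mice spread from 450.3 to 822 CPM on both sides of them. Its 30 μg/kg log2 fold change was 0.06 ± 0.13 (adjusted p = 0.706 by edgeR) and its 95% interval ran from −0.20 to 0.32, it was 0.07 without replicate 1, and its direction turned when replicate 3 or replicate 4 of that dose was left out. With libraries scaled to totals alone, which moves the median of all genes at 30 μg/kg to 0.52, it was 0.57. The 3 μg/kg mice (457 to 581 CPM) all lay below vehicle, at −0.28 ± 0.13 (adjusted p = 0.176).

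Abcc3, the basolateral exporter of glucuronides and bile acids, had its highest means at 1 and 3 μg/kg. It was 277, 371, 374, 363 and 469 CPM in vehicle, 609, 534, 584, 576 and 608 CPM at 0.3 μg/kg and 743, 716, 699, 621 and 653 CPM at 1 μg/kg. At 3 μg/kg it was 654, 583, 655, 629 and 791 CPM, at 10 μg/kg 432, 519.9, 312, 467 and 461 CPM and at 30 μg/kg 232, 690.4, 688, 575 and 510.4 CPM. All mice at 0.3, 1 and 3 μg/kg lay above every vehicle mouse, while the 10 and 30 μg/kg groups overlapped vehicle. The gene was induced 1.85-fold at 1 μg/kg (log2 fold change 0.89 ± 0.18, adjusted p = 0.00115, edgeR's quasi-likelihood test) and 1.79-fold at 3 μg/kg (0.84 ± 0.18, adjusted p = 0.00116). At 0.3 μg/kg the 1.57-fold difference had an adjusted p of 0.0948, at 10 μg/kg the log2 fold change was 0.24 ± 0.17 (adjusted p = 0.310), and at 30 μg/kg the 1.45-fold difference (adjusted p = 0.00839) was under the fold threshold.

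The 30 μg/kg value of Abcc3 turned on single mice and on the scaling. With libraries scaled to totals alone it was 1.06 and was called (adjusted p = 1.47e-06, with 1.47e-06 to 0.266 over the 13 alternatives, 3 of which called it). Replicate 1 was below the vehicle range. Its 4 group mates were above it, at 510 to 690 CPM, and overlapped the mice at 1 and 3 μg/kg. Without replicate 1 the gene was called at 1.63-fold (0.71, adjusted p = 3.55e-05, edgeR). It was also called without vehicle replicate 5, at 0.63 (adjusted p = 0.00481), and over all mice left out the adjusted p ran from 3.55e-05 to 0.0553. Neither run alone called Abcc3 at 1 μg/kg (1.07, adjusted p = 0.0596, and 0.62, adjusted p = 0.345) or at 3 μg/kg (0.87, adjusted p = 0.0813, and 0.77, adjusted p = 0.0700), all upward.

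Abcc4, the basolateral exporter of bile acids, cyclic nucleotides and conjugates, showed the largest rise, which was not steady below 10 μg/kg. Its mean was 7.33, 8.88, 5.81 and 5.22 CPM at 0.1, 0.3, 1 and 3 μg/kg. Vehicle mice had 2.09, 3.79, 2.52, 2.31 and 1.79 CPM, 0.1 μg/kg mice 6.87, 6.99, 8.60, 7.30 and 6.92 CPM and 0.3 μg/kg mice 13.5, 6.06, 10.5, 5.50 and 8.82 CPM. At 1 μg/kg the level was 8.18, 5.08, 6.30, 5.45 and 4.06 CPM and at 3 μg/kg 5.02, 4.18, 5.08, 7.80 and 4.03 CPM. All mice from 0.1 μg/kg up lay above every vehicle mouse. The ranges at 1 and 3 μg/kg overlapped those at 0.1 and 0.3 μg/kg, at 3 μg/kg through replicate 4 alone. At 10 μg/kg they had 9.89, 10.5, 19.8, 25.6 and 11.9 CPM and at 30 μg/kg 42.0, 208, 261, 349 and 285 CPM, where replicate 1 stood far below its group mates. Abcc4 was called at 0.3 μg/kg (3.55-fold, log2 fold change 1.83 ± 0.36, adjusted p = 0.00486, edgeR's quasi-likelihood test), at 10 μg/kg (6.17-fold, 2.62 ± 0.36, adjusted p = 4.18e-07) and at 30 μg/kg (91.2-fold, 6.51 ± 0.40, adjusted p = 2.27e-16). Without replicate 1 the 30 μg/kg rise was 108-fold. Each title run alone called Abcc4 at both doses, with log2 fold changes of 1.85 ± 0.51 in run 1 and 3.21 ± 0.36 in run 2 at 10 μg/kg. At 30 μg/kg the values were 5.48 ± 0.52 and 7.18 ± 0.41, and run 1 held only 2 mice of that dose, including replicate 1. A difference between the runs was not tested.

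At the doses in between and at 0.1 μg/kg the calls for Abcc4 were not stable. Its log2 fold change was 1.55 ± 0.37 at 0.1 μg/kg (adjusted p = 0.107, edgeR's quasi-likelihood test), 1.21 ± 0.37 at 1 μg/kg (adjusted p = 0.0563) and 1.06 ± 0.37 at 3 μg/kg (adjusted p = 0.0632), none of them called. DESeq2 called all 3 doses (adjusted p = 0.00286, 0.0107 and 0.0187), and without vehicle replicate 2, the highest vehicle mouse, edgeR called 1 μg/kg (1.41, adjusted p = 0.0418) and 3 μg/kg (1.26, adjusted p = 0.0426). Over all 10 mice left out the adjusted p at 1 μg/kg ran from 0.0418 to 0.159 and at 3 μg/kg from 0.0426 to 0.189. Over the 13 other ways of processing it ran from 0.00286 to 1 at 0.1 μg/kg, from 0.00584 to 0.274 at 1 μg/kg and from 0.0130 to 0.487 at 3 μg/kg. The call at 0.3 μg/kg was lost in run 1 alone (1.82, adjusted p = 0.446) and kept in run 2 (2.02).

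**Figure D3:**
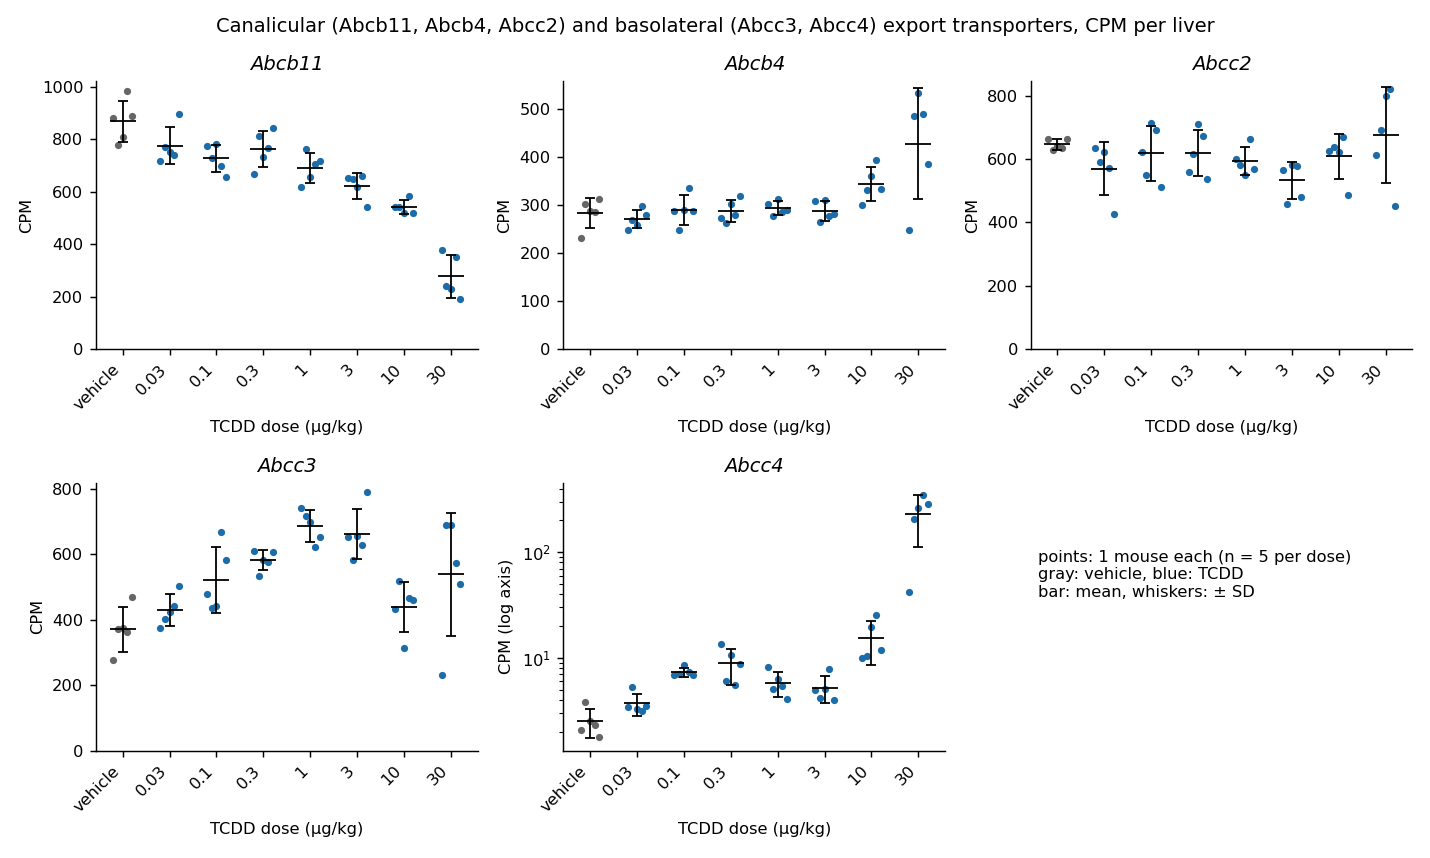
CPM of the 3 canalicular and 2 basolateral export genes (vertical axes, from 0 except for Abcc4, which has a log axis) by TCDD dose in μg/kg (horizontal axes); each point is 1 mouse, gray for vehicle and blue for TCDD, and bars are the mean ± SD of 5 mice. Abcb11 falls, Abcc3 is highest at 1 and 3 μg/kg, and Abcc4 runs from 1.79 to 3.79 CPM in vehicle to 42.0 to 349 CPM at 30 μg/kg, where the lowest point is replicate 1.

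The steps between neighbouring doses, which use no vehicle mouse, gave the following calls. From 3 to 10 μg/kg 4 of 10 transporters were called (2 higher, 2 lower; all genes 6.77%, 4.43% higher and 2.34% lower): Slco1a1 fell (−2.66 ± 0.37), Abcc3 fell (−0.60 ± 0.17, adjusted p = 0.0240, edgeR's quasi-likelihood test), Slco1a4 rose as given above and Abcc4 rose (1.56 ± 0.33, adjusted p = 0.00172). The fall of Abcc3 was no longer called without replicate 5 at 3 μg/kg (−0.52) or without replicate 3 at 10 μg/kg (−0.50), with adjusted p from 0.0204 to 0.104 over all mice left out. Leaving out either of these mice brought the count to 2. Slco2b1 was just outside the call at −0.77 ± 0.26 (adjusted p = 0.0511), with no overlap between the doses, and 6 of 13 alternatives called it, at adjusted p from 0.0114 to 0.715 over all of them. From 10 to 30 μg/kg 6 of 10 were called (1 higher, 5 lower; all genes 21.1%, 10.6% higher and 10.6% lower). Slc10a1 (−1.47 ± 0.21), Slco1a1 (−1.48 ± 0.36), Slco1b2 (−0.96 ± 0.25), Slco2b1 (−2.09 ± 0.27) and Abcb11 (−0.96 ± 0.12) fell, with adjusted p from 1.74e-07 to 0.00309. The mice of the 2 doses overlapped for Slco1a1, Slco1b2 and Slco2b1 and not for Slc10a1 and Abcb11. The fall of Slco1a1 was not called with only the groups compared (adjusted p = 0.0581, edgeR). In run 1 alone those of Slc10a1, Slco1a1 and Slco1b2 were not called. Abcc4 rose by 3.89 ± 0.34 on the log2 scale (adjusted p = 8.40e-11).

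Summed per length, the balance between the 3 classes shifted with dose, as the plot of summed levels shows. Uptake genes summed to 500.0 ± 39.9 RPKM in vehicle, 242 ± 34.8 at 10 μg/kg and 99.6 ± 48.6 at 30 μg/kg (SD, n = 5 each). Canalicular genes summed to 275 ± 15.7, 213 ± 14.6 and 179 ± 31.8 RPKM at the same doses, and basolateral genes to 65.5 ± 11.9, 79.4 ± 13.2 and 130.4 ± 47.7 RPKM. Without replicate 1 the 30 μg/kg sums were 78.2 ± 9.11, 181 ± 36.4 and 151 ± 11.9 RPKM (n = 4). The basolateral sum did not rise steadily, at 121 ± 8.76 RPKM at 1 μg/kg and 117 ± 13.5 RPKM at 3 μg/kg (SD, n = 5 each). Uptake over basolateral export was 7.90 ± 1.98 in vehicle, 3.49 ± 0.521 at 1 μg/kg, 3.12 ± 0.548 at 3 μg/kg and 3.10 ± 0.527 at 10 μg/kg. At 30 μg/kg this ratio had a median of 0.554 and a range of 0.431 to 3.93, whose top is replicate 1. Abcc4 made up 0.615 ± 0.203% of the basolateral sum in vehicle, 1.28 ± 0.295% at 0.1 μg/kg, 1.33 ± 0.440% at 0.3 μg/kg, 0.745 ± 0.163% at 1 μg/kg, 0.71 ± 0.235% at 3 μg/kg, 3.20 ± 1.66% at 10 μg/kg and 25.7 ± 8.72% at 30 μg/kg (28.7 ± 6.58% without replicate 1).

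The order of levels was rearranged at 30 μg/kg. Abcc3 (94.6 ± 33.0 RPKM) and Abcc2 (79.2 ± 17.7 RPKM) came first, with overlapping ranges, and Slc10a1, first in vehicle, came after Abcb11 at 53.0 ± 33.7 RPKM. Abcc4 reached 35.8 ± 18.2 RPKM, a range that overlapped that of Slco1b2 (35.9 ± 17.3 RPKM). Slco1a1 was last at 2.37 ± 1.56 RPKM. Every neighbour in this order overlapped the next. Without replicate 1 the order changed, with Abcc4 (43.2 ± 9.13 RPKM) above Slc10a1 (39.1 ± 15.1 RPKM), Slco2b1 (1.98 ± 0.881 RPKM) last, and Slco1b2 and the genes above it clear of Slco1a4 and the genes below (SD, n = 4).

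**Figure D4:**
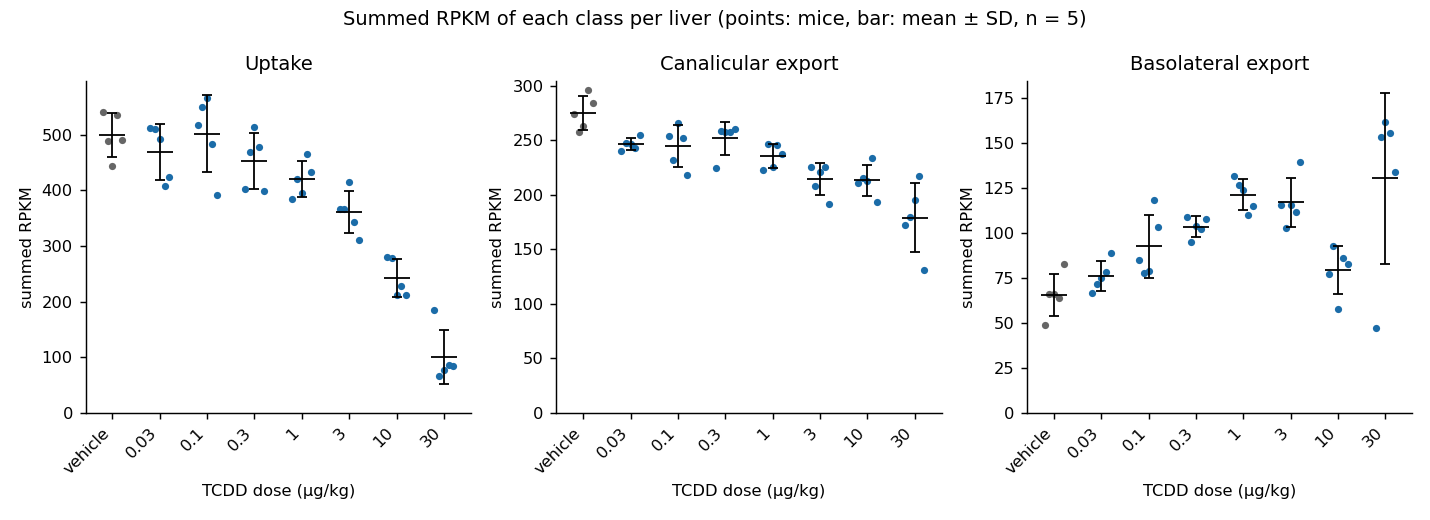
Summed RPKM (vertical axes, from 0) of the uptake, canalicular export and basolateral export genes by TCDD dose in μg/kg (horizontal axes); each point is 1 mouse, gray for vehicle and blue for TCDD, and bars are the mean ± SD of 5 mice. The uptake sum falls from 500.0 to 99.6 RPKM, the canalicular sum from 275 to 179 RPKM, and the basolateral sum is highest at 1, 3 and 30 μg/kg, with replicate 1 as the low point at 30 μg/kg.

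Other transporters of bile constituents, organic anions and cations were split. Of 25 listed, 19 passed the filter on low counts, and at 30 μg/kg 7 rose and 8 fell (all genes 23.2% higher, 18.9% lower). Slc10a2, the apical bile acid importer of bile ducts and ileum, fell (−3.56 ± 0.50), as did the cation exporter Slc47a1 (−2.23) and Abcc6 (−2.10), and the basolateral exporters Abcc1 (2.75) and Abcc5 (1.86) and the importer Slco3a1 (1.66) rose. Abcc1 rose from 1.74 ± 0.706 to 11.8 ± 3.62 CPM (SD, n = 5). Slc51a and Slc51b, the subunits of the basolateral bile acid exporter OSTα/β, named after their values were seen, failed the filter with at most 19 and 7 counts in a library and were not tested.

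Among 14 tested regulators of bile acid sensing, 1 rose and 8 fell at 30 μg/kg (all genes 23.2% higher, 18.9% lower). Nr0b2, the corepressor SHP that the bile acid receptor FXR induces, had the largest fall (−3.25 ± 0.39), followed by Ppara (−1.87), Fgfr4 (−1.27) and Klb (−1.20). Nfe2l2, which encodes NRF2, rose at 10 μg/kg (1.54) and 30 μg/kg (2.45 ± 0.20). Of 12 tested genes of bile acid synthesis and conjugation 9 fell at 30 μg/kg, beside 18.9% of all genes. Cyp2c70, the muricholic acid enzyme, was at −3.73, the bile acid ligase Slc27a5 at −2.35 and the conjugating enzyme Baat at −2.21. The 6 AhR targets all rose at 10 and 30 μg/kg (all genes 13.6% and 23.2% higher). They include Nqo1 (4.80 at 30 μg/kg), which NRF2 is also known to induce. The largest adjusted p among the genes named here at 30 μg/kg was 6.66e-06 (edgeR's quasi-likelihood test).

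Markers of other liver cells moved with the transporters at the top dose. Hepatocyte markers summed to 123737 to 152431 CPM in vehicle, 81700.1 to 134667 CPM at 10 μg/kg and 38345 to 84065 CPM at 30 μg/kg, and the 0.3, 1, 3 and 30 μg/kg mice all lay below the vehicle mice while the 10 μg/kg mice overlapped them. The median log2 fold change of the 8 markers was −0.50 at 3 μg/kg, −0.63 at 10 μg/kg and −1.90 at 30 μg/kg. Cholangiocyte markers, of which 5 of 6 were tested, summed to 37.4 to 48.4 CPM in vehicle and 68.0 to 333 CPM at 30 μg/kg. Of the 5 tested, 4 rose and 1, Sox9, fell at 30 μg/kg. Spp1 made up the largest part of this sum, at 25.8 ± 4.95 CPM in vehicle and 137 ± 74.9 CPM at 30 μg/kg (SD, n = 5 each). At that dose 23.2% of all genes were called higher and 18.9% lower, the background for all marker counts given here. Macrophage markers (6 of 6 rose) summed to 128 to 174 CPM in vehicle and 400.0 to 899.9 CPM at 30 μg/kg. Stellate cell markers (4 of 5 rose) summed to 57.9 to 123 and 276 to 762 CPM, and endothelial markers (4 of 5 rose) to 106 to 148 and 193 to 284 CPM, at the same doses. Their part in the rises of Abcc4 and Abcb4 and in the falls of the uptake genes and Abcb11 was not tested. At 10 μg/kg the cholangiocyte sum was 35.7 to 75.7 CPM and overlapped vehicle. The macrophage sum (306 to 447 CPM), the stellate sum (218 to 244 CPM) and the endothelial sum (200.1 to 230.0 CPM) lay above all vehicle mice at that dose.

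The genes whose log2 CPM ran most like each transporter over the 40 libraries, out of 12598 with a symbol and a mean of at least 1 CPM, are given as a description, since all share the dose groups and the libraries. Slc10a1 ran with Pipox (Pearson's r = 0.99), Maob (0.99) and Uroc1 (0.99), Slco2b1 with Abcc6 (0.99), Dpys (0.99) and Haao (0.99), and Slco1b2 with Gm4788 (0.98) and Apob (0.98). Abcb11 was nearest to Amdhd1 (0.97), Aass (0.96) and Hsd3b2 (0.96). Slco1a1 was nearest to Ppp1r1b (0.97), Hsd3b5 (0.96) and Fgf1 (0.96). Abcc4 ran with Cbr3 (0.96), Srxn1 (0.95) and Slc48a1 (0.94). Abcb4 was nearest to Slc22a5 (0.88), Thbd (0.86) and Eaf1 (0.86), and Abcc2 to Wwp1 (0.77), Dhx15 (0.77) and Nedd4 (0.77). Abcc3 ran with Fitm2 (0.76), Nucb1 (0.73) and Akip1 (0.72), and Slco1a4, with the lowest values of the 10, with Dcaf6 (0.60), Rgs16 (0.59) and Acot12 (0.59). Among the members themselves Slc10a1 and Slco2b1 were closest (0.98 over 40 libraries), whereas Slco1a4 had 0.17 with Slco1a1 and Abcc3 0.15 with Abcc4.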

How the data were processed

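Liver RNA of 40 mice was sequenced as 150 bp paired ends after NEBNext Ultra II library preparation. Per the labels, the authors trimmed reads with Trimmomatic 0.39, checked them with FastQC 0.11.7 and aligned them with STAR 2.7.3a. The submitters' processing notes name both GRCm39 and mm10 without saying which was used. The deposited raw counts per gene (1 file per library, unstranded column) were the input. The other deposited table, on a log2 scale, holds variance-stabilized values that the authors normalized over all libraries and served only as an alternative in limma.

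Counts of all 40 libraries were fitted together with edgeR 4.0.16 (R 4.3.3, quasi-likelihood test, trimmed mean of M-values scaling). A prior count of 2 was used only for the log2 CPM behind the principal components and the correlations. The 15373 genes with enough counts by filterByExpr (minimum count 10, total 15) were tested, and p-values were Benjamini-Hochberg adjusted over all of them. A gene was called at an adjusted p under 0.05 and a fold of at least 1.5, and slopes over the ordered doses at the adjusted p alone. This test stood in for the study's own empirical Bayes method, which was not run here. Libraries held 15.5 M to 21.0 M counts in genes. RPKM used GENCODE M21 exon lengths and names, which named 52083 of the 55359 identifiers. The fit was tested on simulated counts.

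Groups came from the sample labels, and each library is 1 mouse. The members and gene lists were chosen with earlier results of these data known. All 10 members are described. From the other lists, genes were named from at most 6 each, taking genes called at 30 μg/kg whose higher group averaged 100 counts or more, by size of log2 fold change. The 3 tested genes most like each member, with a symbol and a mean of at least 1 CPM, were taken by Pearson's r over the libraries. Some genes that these rules select are not reported here. Alternatives were library totals alone, relative log expression size factors, DESeq2 1.42.0, limma 3.58.1, filters on low counts, only the groups compared, strand columns, no fold threshold, linear dose, title run as a covariate, each run of the titles, and each mouse left out. The fit with title run and order was added after seeing the data.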

Additional observations from a re-analysis of the deposited data

Results flagged for a closer look

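In 7 of the 80 groups of 5 mice formed by 10 transporters and 8 doses, 1 mouse stood apart from the other 4 by more than Dixon's 95% limit, a rule that chance meets in about 1 group in 20. Abcc4 had 3 of these mice, all the highest of their group: replicate 2 at 0.03 μg/kg with 5.26 CPM, replicate 3 at 0.1 μg/kg with 8.60 CPM and replicate 4 at 3 μg/kg with 7.80 CPM. Slco1a4 was high in replicate 4 at 10 μg/kg, at 53.2 CPM. Slco1b2 was high in replicate 4 at 1 μg/kg, at 769.9 CPM, and Abcb11 in replicate 5 at 0.03 μg/kg, at 898.8 CPM. Abcc2 was low in replicate 5 at 10 μg/kg, at 487 CPM.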

How the results depend on the processing

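The number of transporters called at 10 and 30 μg/kg, from 10 to 30 μg/kg and along the ordered doses moved by over 1.5 times only in libraries of title run 1, and at 30 μg/kg in no alternative. In run 1 alone the counts were 0 at 0.3 μg/kg, 0 at 1 μg/kg, 0 at 3 μg/kg, 3 at 10 μg/kg, 1 from 3 to 10 μg/kg, 3 from 10 to 30 μg/kg and 5 along the ordered doses, with fewer mice in each fit. In run 2 alone the count at 1 μg/kg was 0. At 0.1 μg/kg DESeq2, no filter on low counts and a fit to only the groups compared each gave 1. At 0.3 μg/kg DESeq2 and only the groups compared gave 2. At 1 μg/kg library totals alone, no filter, a mean count of at least 50 and DESeq2 each gave 2, and only the groups compared gave 3. With 1 mouse left out at a time the count ran from 1 to 2 at 1 μg/kg (2 without vehicle replicate 2) and from 2 to 4 from 3 to 10 μg/kg (2 without 3 μg/kg replicate 5 or 10 μg/kg replicate 3). The cause was not tested.

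Directions turned for values near 0. Abcc2 at 10 μg/kg was 0.13 with library totals alone, and at 30 μg/kg it ran from −0.0402 to 0.155 over the mice left out. Abcc3 at 10 μg/kg was −0.0083 in run 2 alone, and from 10 to 30 μg/kg it was −0.0412 in run 1 alone. Library totals alone moved the median log2 fold change of all genes to 0.22 at 10 μg/kg and 0.52 at 30 μg/kg, with 6402 genes called higher and 1559 lower at 30 μg/kg, against 3567 and 2909, and 2980 higher and 756 lower at 10 μg/kg, against 2097 and 1250. Slc10a1, Slco1a1, Slco1b2, Slco2b1 and Abcb11 stayed lower and Abcc4 higher than vehicle at both doses under it. No paired analysis was possible because the labels give no replicate number that groups share. The title run and order, fitted as covariates and not as such a pairing, lost the call of Abcb4 at 30 μg/kg (0.58), added that of Slco2b1 from 3 to 10 μg/kg (−0.73) and changed no other transporter's call.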
